A study of Mus musculus with 4 samples.

Results

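The m6A peaks over the exons of 5 synaptic adhesion genes of the mouse, the neurexins Nrxn2 and Nrxn3 and the neuroligins Nlgn1, Nlgn2 and Nlgn3, were described in whole brain. The genes were chosen by family name, and a peak was counted when it touched any exon of these genes in the GENCODE M21 annotation of mm10 (GRCm38). They are 5 of the 12459 protein-coding genes with an exonic peak, and they held 33 of the 38533 peaks of replicate 1 and 29 of the 30134 peaks of replicate 2. All 4 samples came from C57BL/6J animals aged 4 weeks, and the design text of the series gives their genotype as Prrc2a flox/flox, a floxed allele that every sample carries. Polyadenylated RNA was fragmented and pulled down with an anti-m6A antibody in 2 IP samples, beside 2 input samples that did not pass the antibody. Only the IP samples had a peak list, and no group without the mark or without its readers was compared.

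Neurexins sit on the presynaptic membrane and neuroligins on the postsynaptic membrane, where they bind each other across the cleft and help organise the synapse. A neurexin gene makes a long alpha form from an upstream promoter and a short beta form from a promoter inside the gene, so that each form begins with a first exon of its own, and both end in the same exons. m6A is a methyl group that the METTL3 and METTL14 complex adds to adenosines of mRNA, often within the bases GGAC, with many sites in long internal exons and around the stop codon. Proteins that bind the mark can alter how long the RNA lasts and how much of it is translated.

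The labelled tissue was checked against marker genes of brain cells, 9 of 9 of which held a peak found in both replicates. Of 3 markers of other organs, Alb and Ins2 had no peak and Myh6 had 1 found in both. The value of a peak is its fold enrichment, the linear ratio of IP over input that the peak caller gave. It had a median of 2.71 over all exonic peaks of replicate 1 and 2.17 over those of replicate 2. No read counts came with the lists, so the depth is unknown, and for an exon without a peak, absence of the mark and too little RNA cannot be told apart.

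All 5 genes carried m6A peaks found in both replicates, against 80.2% of all protein-coding genes with an exonic peak. A peak is called shared here when at least 1 of its bases was also in a peak of the other replicate, and the bases common to both are called a shared interval. Of the 33 peaks of replicate 1, 27 were shared (81.8%), against 67.8% of all exonic peaks. Of the 29 peaks of replicate 2, 25 were shared (86.2%), against 76.8% of all exonic peaks. The genes held 26 shared intervals, 5 in Nrxn2, 7 in Nrxn3, 5 in Nlgn1, 6 in Nlgn2 and 3 in Nlgn3, where the median gene with any had 2. Per kilobase of exon Nlgn2, the most compact of the genes, had the highest density with 1.04 intervals. The density was 0.56 in Nrxn3, 0.37 in Nlgn1, 0.36 in Nrxn2 and 0.32 in Nlgn3, and the median over genes with a shared interval was 0.40. The transcripts, the peaks and their fold enrichments are drawn in the transcript maps.

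**Figure D1:**
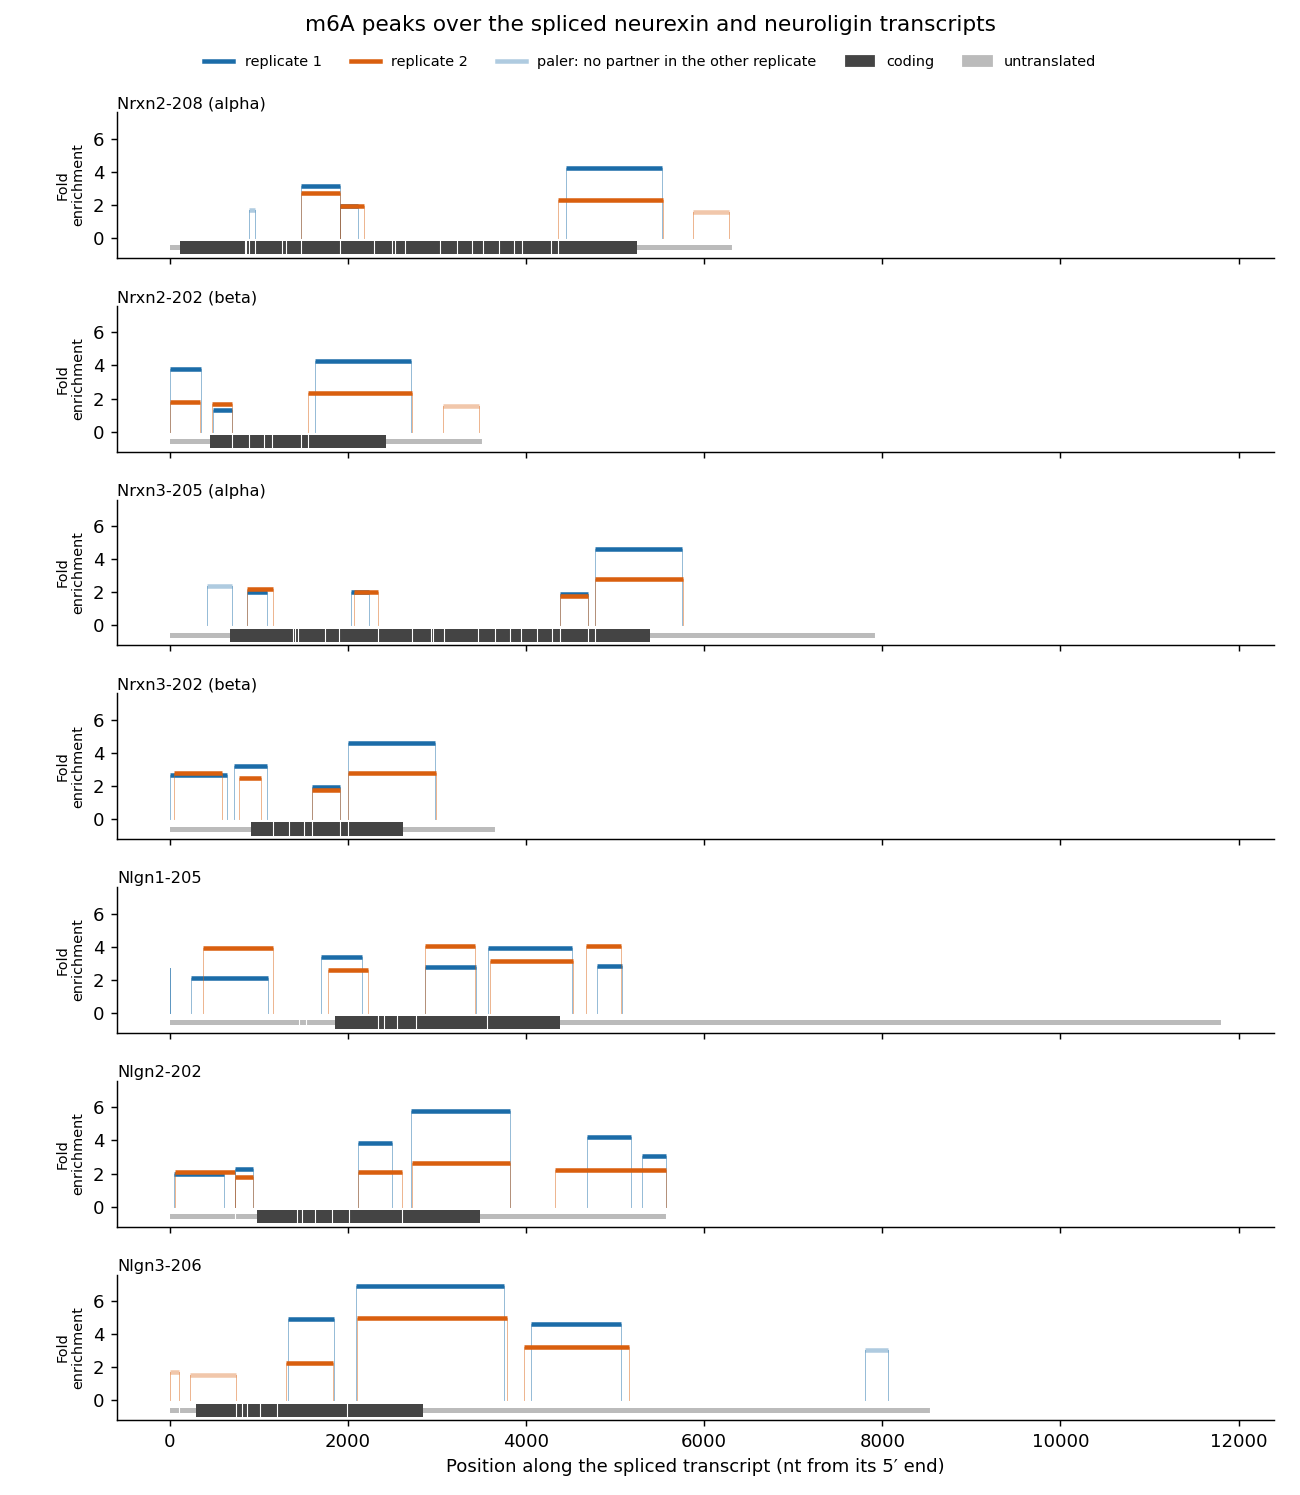
Peaks of replicate 1 (blue) and replicate 2 (orange) along the spliced transcripts of the 5 genes, with the alpha and the beta form for both neurexins. The x axis is the position in nt from the 5′ end, the y axis is fold enrichment, dark boxes are coding and grey boxes untranslated sequence, white lines are exon borders, and paler peaks had no partner in the other replicate. In every gene a shared peak lies over the end of the coding sequence, from 2.32 in replicate 2 for Nrxn2 to 6.92 in replicate 1 for Nlgn3.

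The end of the coding sequence held a shared interval in all 5 genes, and so did at least 1 internal exon longer than 400 nt in each. Each gene had exactly 1 shared interval over its stop codon, where 53.6% of all genes with a shared peak had any. Counted by interval this is 5 of 26, beside 23.7% of all exonic shared intervals, which is a count close to that background. The remaining intervals lay elsewhere in the genes.

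Nlgn3, a neuroligin found at both excitatory and inhibitory synapses, had the strongest of these peaks. Its fold enrichment over the stop codon was 6.92 in replicate 1 and 4.95 in replicate 2, at chrX:101319532-101321174. Those values were above 98.2% and 98.9% of all peaks in the respective list, and by the lower value Nlgn3 ranked above 98.9% of genes. The interval was also the longest of the 26 with 1643 nt, of which 731 nt were coding and 912 nt lay in the 3′ UTR.

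In the other 4 genes the stop codon peak was less strong in both replicates. Nlgn2, the neuroligin of inhibitory synapses, had 5.79 and 2.65 in replicates 1 and 2 at chr11:69824872-69825969. Nlgn1, which is mostly found at excitatory synapses, had 3.93 and 3.11 at chr3:25433504-25434426. Nrxn3 had 4.61 and 2.79 at chr12:90331541-90332765, and Nrxn2 had 4.24 and 2.32 at chr19:6531349-6532428. In replicate 1 the stop codon peak was the strongest exonic peak of its gene in 5 of 5 genes. In replicate 2 it was so only in Nlgn2 and Nlgn3, while a peak elsewhere was higher in Nrxn2 (2.72), Nrxn3 (2.94) and Nlgn1 (4.07). Which peak led its gene therefore depended on the replicate for 3 of the 5 genes. By the lower value of both replicates, the strongest shared peak lay over the stop codon in every gene but Nrxn2. Over all genes the share by that measure was 38.3%. No share over all genes was computed for a single replicate.

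The reach of the mark into the 3′ UTR differed among the genes. In Nlgn1 the 3′ UTR of 7423 nt held shared intervals only up to 683 nt past the stop codon. In Nlgn3 they ended 2222 nt past it in a 3′ UTR of 5701 nt, and in Nlgn2 they ran to the last base of a 3′ UTR of 2081 nt. The neurexins had no shared interval in the 3′ UTR beyond the one over the stop codon, which covered 280 of 1069 nt in Nrxn2 and 355 of 2525 nt in Nrxn3. These lengths are those of the representative transcript, the one with the longest coding sequence, and which 3′ end the brain uses was not measured.

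Within the neuroligin 3′ UTRs the separate intervals had values close to those of the coding exons. The Nlgn3 interval at chrX:101321478-101322484 had 4.61 and 3.26. The Nlgn1 interval at chr3:25432955-25433220 had 2.85 and 4.06, with the higher value in replicate 2. In Nlgn2 the intervals at chr11:69823515-69824009 and chr11:69823122-69823385 had 4.18 and 3.09 in replicate 1 and shared a single peak of 2.24 in replicate 2. Peaks of the last exons without a partner were a replicate 1 peak near the 3′ end of Nlgn3 (3.05, chrX:101325232-101325490) and a replicate 2 peak in Nrxn2 (1.56, chr19:6532784-6533187).

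The last neurexin exon has alternative beginnings, and the stop codon peaks extended over its optional parts. In Nrxn2 the part from chr19:6531268-6531843, present in 4 annotated transcripts that include the alpha form Nrxn2-208 and the beta form Nrxn2-202, was covered over 495 of its 576 nt. In Nrxn3 the part from chr12:90331788-90332108, in the alpha form Nrxn3-205 and the beta form Nrxn3-202 among others, was covered over all 321 nt. A stretch further upstream, chr12:90331485-90331787, that is exonic only in Nrxn3-208 and Nrxn3-213 was covered over 247 of its 303 nt. The constant parts up to the stop codon were covered in full, 305 nt in Nrxn2 and 302 nt in Nrxn3. An antisense gene, Gm14964, overlaps the Nrxn2 interval, and the lists carry no strand, so that reads of both cannot be told apart there.

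Coding sequences of the paralogs were aligned to find GGAC at the same place in both, inside the shared intervals of both. Of 7 aligned GGAC sites of Nrxn2 and Nrxn3, 1 lay in a shared interval of both genes, 127 and 124 nt before the end of the stop codon. These are the only aligned bases of that kind in the neurexins, and they are printed for that reason, as 25 nt windows on the plus strand of GRCm38 with GGAC in capitals.
Nrxn2 (chr19:6532009-6532033): cctaccaggtGGACcagagccggaa
Nrxn3 (chr12:90332274-90332298): cctatcaagtGGACgagacgaggaa
The coding sequences as a whole were 69.1% identical over 4681 aligned nt, and 15.7% of those nt lay in a shared interval of both genes.

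Among the neuroligins a larger part of the coding sequence was covered in each pair. For Nlgn1 and Nlgn3 49.4% of 2415 aligned nt lay in shared intervals of both, for Nlgn1 and Nlgn2 43.6% of 2427 nt, and for Nlgn2 and Nlgn3 42.5% of 2403 nt. Identity was 66.5% to 70.5%. Of 4 aligned GGAC sites of Nlgn1 and Nlgn2, 1 lay in a shared interval of both genes and 3 in neither. The former lay in the stop codon intervals as the extended bases GGACT. It is shown with the aligned window of Nlgn3 (Nlgn1 and Nlgn2 minus strand, Nlgn3 plus strand, with the 5 aligned bases in capitals).
Nlgn1 (chr3:25434086-25434110): tggatcagagGGACTactccacaga
Nlgn2 (chr11:69825687-69825711): gtgactcgagGGACTactccacgga
Nlgn3 (chrX:101319811-101319835): agaaccctcgAGACTactccactga
In Nlgn3 the aligned bases read AGACT and also lay in its stop codon interval. Of 2 aligned GGAC sites of Nlgn1 and Nlgn3, 1 lay in a shared interval of both genes and 1 in neither. The former lay further upstream in the same intervals and was aligned between Nlgn1 and Nlgn3 only (GGAC in capitals).
Nlgn1 (chr3:25434200-25434224): tgccatccacGGACatcactctcag
Nlgn3 (chrX:101319655-101319679): tgccgcccccGGACaccacccacag

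Upstream of the last exon, every neuroligin had a shared interval in the long exon that precedes it and codes for part of the extracellular cholinesterase-like domain. In Nlgn3 this exon of 790 nt had 4.93 in replicate 1 and 2.26 in replicate 2 (chrX:101318051-101318561). In Nlgn2, where the exon is 597 nt, the values were 3.84 and 2.08 (chr11:69826862-69827240). In Nlgn1, again with 790 nt, they were 2.78 and 4.07 (chr3:25435983-25436542), so that replicate 1 was higher in Nlgn2 and Nlgn3 and replicate 2 in Nlgn1. The Nlgn3 interval, and that over its stop codon, also touch exons of Gm21986, a transcript annotated on the same strand.

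The intervals of Nlgn2 and Nlgn3 in that exon shared 3 GGAC sites at aligned positions, of 4 aligned in the whole coding sequence. The first is followed by the same base in both genes and is printed with GGAC in capitals.
Nlgn2 (chr11:69827122-69827146): ccaactttgtGGACaacttgtacgg
Nlgn3 (chrX:101318316-101318340): ccaattttgtGGACaatctgtatgg
The last of them is GGACT in both, and the aligned window of Nlgn1, also inside its shared interval, reads TGACT at those bases (the 5 aligned bases in capitals).
Nlgn2 (chr11:69827056-69827080): tcatgtacacGGACTgggctgacag
Nlgn3 (chrX:101318382-101318406): tcatgtatacGGACTgggcagaccg
Nlgn1 (chr3:25436165-25436189): tcatgtatacTGACTgggctgatcg
A peak this wide does not say which adenosine carries the mark, and these windows show sequence inside peaks and not methylated bases.

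Both neurexins had shared peaks in the first exon of the beta form, and Nrxn3 also in that of the alpha form. With only peaks of at least 2 in fold enrichment, the Nrxn2 beta first exon held no shared peak. The alpha and beta first exons of Nrxn3 kept theirs. In Nrxn2 the beta first exon, 704 nt with the beta start codon at position 6498279 of chromosome 19, held 2 shared intervals. The one before the start codon had 3.78 in replicate 1 and 1.77 in replicate 2 (chr19:6497563-6498172). It began upstream of the exon and covered the exon's first 345 nt, and 502 of its 610 nt lay in any annotated exon. The one after the start codon had 1.31 and 1.65 (chr19:6498320-6498609), and 1.31 was the lowest value of replicate 1 among all shared intervals. It ran past the end of the exon, with 212 of its 290 nt exonic. The parts of both intervals outside the exon cannot be assigned to the beta form. Peaks covered 80.0% of the exon in replicate 1 and 81.8% in replicate 2. The exon of 974 nt that holds the alpha start codon of Nrxn2 had no peak in either replicate, and the alternative first exon of 242 nt further upstream had only a replicate 2 peak of 1.79 (chr19:6418737-6418972).

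In Nrxn3 more of the beta than of the alpha first exon was covered. The beta first exon of 1158 nt held an interval of 2.66 and 2.76 in replicates 1 and 2 (chr12:89812532-89813066) and another of 3.24 and 2.47 over the beta start codon (chr12:89813264-89813507). Peaks covered 87.7% of it in replicate 1 and 67.3% in replicate 2. The alpha exon of 1390 nt held 1 shared interval of 2.01 and 2.19 after the start codon (chr12:88795372-88795598), and a replicate 1 peak of 2.40 lay over the start codon itself (chr12:88794923-88795198). Coverage of the alpha exon was 36.2% and 21.7%. The 2 first or start codon exons of the shorter coding transcripts Nrxn3-201 and Nrxn3-210 had no peak, and a non-coding first exon at the 5′ end of the gene had a shared interval of 2.53 and 2.94 (chr12:88722839-88723084). A peak needs enough RNA to be called, and the input levels of the alpha and beta forms were not among the values, so that a difference in mark and a difference in amount of RNA cannot be told apart. In whole brain, fewer cells of a type and less RNA per cell cannot be told apart either.

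GGACT windows from these first exons are given because the beta first exons belong to no alpha transcript shown here, nor the alpha exon to a beta transcript (plus strand, GGACT in capitals).
Nrxn2 beta (chr19:6498122-6498146): gcttggctccGGACTgaggctcggg
Nrxn3 beta, first (chr12:89812686-89812710): tgggaactcaGGACTtaaggcggct
Nrxn3 beta, second (chr12:89812986-89813010): ctagtacatcGGACTtgaagtacca
Nrxn3 alpha (chr12:88795447-88795471): gctttagcatGGACTgtgccgagac
The beta windows lie in the 5′ UTR of the beta transcripts, and the alpha window in the coding sequence.

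At the 5′ end of the neuroligins, Nlgn1 and Nlgn2 had shared peaks and Nlgn3 had none. Nlgn1 had 2.11 and 3.90 over its non-coding exon of 1457 nt (chr3:26331351-26332088), which the antisense gene A830092H15Rik overlaps, and 3.39 and 2.59 over its start codon (chr3:26133422-26133812). Nlgn2 had 1.95 and 2.12 in exon 1 (chr11:69837175-69837724) and 2.27 and 1.78 in the 5′ UTR part of the exon with its start codon (chr11:69834478-69834777). In Nlgn3 replicate 2 alone had peaks of 1.71 over exon 1 and 1.52 over the start codons (chrX:101299097-101299401 and chrX:101301907-101302431). Replicate 1 alone had a peak of 2.38 over a 43 nt first exon of Nlgn1-203, and a peak of 2.70 that touched only the outermost 5′ bases of the first Nlgn1 exon. The latter overlapped a replicate 2 peak lying outside the exon, so that it is counted among the shared peaks but gives no shared interval.

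In all, 7 of 14 first exons or start codon exons of the 5 genes held a shared interval, where the share over all genes with a shared peak was 25.6%. Those 7 exons were 704 to 1457 nt long, and the others 43 to 974 nt. Of all exons longer than 400 nt in representative transcripts 73.1% held a shared interval, so the count is no result about first exons apart from length. The count of 7 fell to 4 when only peaks of at least 2 in fold enrichment were used, and the share over all genes at that limit was not computed. Start codons lay in 2 of the 26 shared intervals, the Nrxn3 beta and the Nlgn1 start, against 11.1% of all exonic shared intervals.

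Of the exons within the neurexin alpha forms, few held a peak. The exon of 439 nt in the extracellular part, exon 8 of Nrxn2-208 and exon 6 of Nrxn3-205, was the only aligned internal exon with a shared interval in both genes. In Nrxn2 it had 3.12 and 2.72 (chr19:6473319-6473876), and in Nrxn3 2.04 and 2.05 (chr12:89254845-89255012), where an unclassified gene on the other strand, Gm37980, also has an exon. The exon was 65.6% identical between the genes and held 6 GGAC sites in Nrxn2 and 0 in Nrxn3. The Nrxn2 interval of 558 nt ran into the intron and held 7, and the shorter Nrxn3 interval of 168 nt held 0. Both GGACT windows of the Nrxn2 interval are given, since no such bases stood in the Nrxn3 interval (plus strand, GGACT in capitals).
Nrxn2 exon 8, first (chr19:6473505-6473529): ccatctccctGGACTtcagaaccac
Nrxn2 exon 8, second (chr19:6473721-6473745): ggtgccacgtGGACTtccagaggga

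Of 15 aligned pairs of internal neurexin exons, 12 had no shared interval in either gene, and 1 in each direction had it in a single gene. The Nrxn2 case was exon 9 of 387 nt with 1.93 and 1.95 (chr19:6481092-6481309). The Nrxn3 case was exon 18 of 308 nt with 1.92 and 1.78 (chr12:90204511-90204818), where the interval matched the exon from end to end. Of the internal exons up to 400 nt, 1 of 19 held a shared interval in Nrxn2 and 1 of 17 in Nrxn3. Both counts are close to the 7.3% over all genes, so they are no result about neurexins. Peaks in replicate 1 alone lay over exon 4 of Nrxn2 (1.67, chr19:6450400-6450754), over another annotated Nrxn2 exon (3.88, chr19:6445229-6445538) and over an Nrxn3 exon that occurs in transcripts marked for nonsense-mediated decay (3.16, chr12:90321891-90322207).

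Long exons held a shared interval more often than short ones, in these genes as over all genes. Of the exons of the 5 representative transcripts, 15 of 17 longer than 400 nt held a shared interval, beside 73.1% of such exons over all genes with a shared peak. Of those up to 400 nt, 2 of 49 did, beside 8.94%. Without the first and last exons the counts were 7 of 8 and 2 of 48, beside 75.1% and 7.3%. The 2 long exons without a shared interval were those with the start codon of Nrxn2 alpha and of Nlgn3. The limit of 400 nt was set with the values known, and peaks were called along the genome, where a short exon is flanked by intron. The part of that in the result was not tested.

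**Figure D2:**
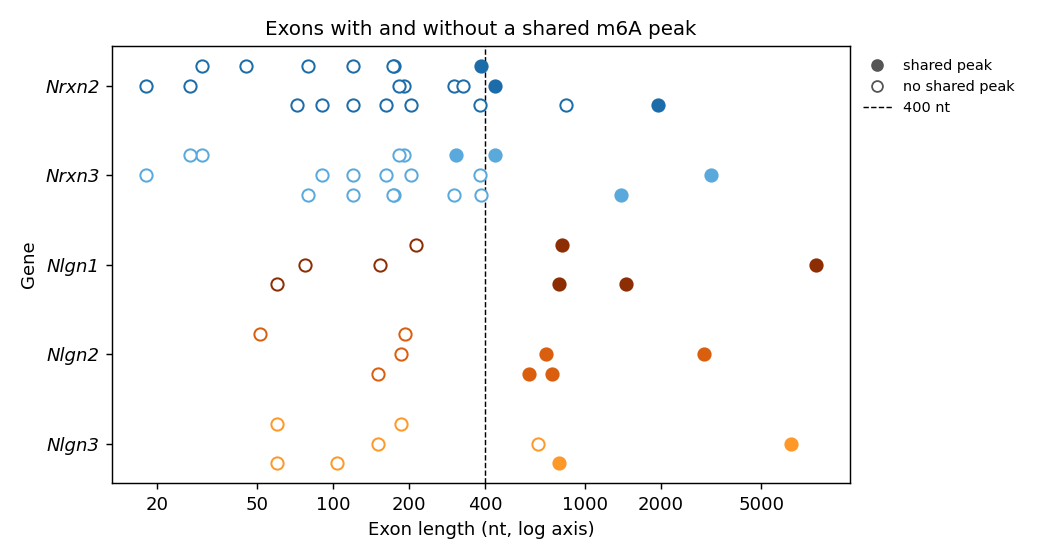
Length of each exon of the 5 representative transcripts (x axis, nt, log scale) by gene (rows), with filled points for exons holding a shared interval and open points for the others; vertical offsets within a row only keep points apart. To the right of the dashed line at 400 nt 15 of 17 points are filled, and to its left 2 of 49.

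Alternatively spliced cassettes are the hallmark of neurexins and neuroligins and tune which partner they bind. Of 8 exons of the representative transcripts that some coding transcript of the same gene skips, 1 held a shared interval, and that was the last exon of Nrxn2, which Nrxn2-203 lacks. The other 7 were 27 to 90 nt long, and none of them had a shared interval, where 7.3% of all internal exons up to 400 nt had one. So few short exons are no result about cassettes. The cassette exon 4 of Nrxn2 was touched by a replicate 1 peak alone.

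Bases GGACT occurred in 16 of the 26 shared intervals (61.5%), beside 42.4% of all exonic shared intervals, and GGAC in 24 of 26 (92.3%), beside 81.4%. Both were searched on the strand of the gene, and every GGACT is also a GGAC. Long intervals hold more of any short motif, so the density along the spliced transcripts was taken as well. Inside shared intervals GGACT occurred 1.53 times per kilobase and outside 0.69 times, and GGAC 6.52 and 3.28 times. The density of GGAC was higher inside than outside in each of the 5 genes, with the smallest ratio in Nlgn2 (7.70 against 5.81 per kilobase) and the largest in Nlgn3 (6.64 against 2.04). These densities were not computed over all genes, so they have no background. Of the 3′ UTR, only 400 of 7423 nt in Nlgn1 and 1919 of 5701 nt in Nlgn3 lay inside shared intervals. The part of such differences in region was not tested. Shared intervals made up 30.9% of the 40152 nt of the 5 transcripts and contained 19 of their 38 GGACT and 81 of their 172 GGAC. The 2 intervals without GGAC were those of Nrxn3 exon 6 and of the Nlgn2 start codon exon.

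Replicate 1 had the higher fold enrichment in most matched pairs of these genes. Pairing each shared peak with its best partner gave 25 pairs, of which 15 were higher in replicate 1 (60%), beside 78.3% of all exonic pairs. All 3 pairs of Nlgn3 and 4 of 5 of Nlgn2 were higher in replicate 1, with median ratios of 1.41 and 1.84. In Nrxn2 3 of 5 were so and in Nrxn3 3 of 7, with median ratios of 1.15 and 0.998. In Nlgn1 replicate 2 was higher in 3 of 5 pairs, with a median ratio of 0.70. Over the 25 pairs the ratio ran from 0.54 to 2.19 with a median of 1.26, and over all exonic pairs the median was 1.29. No test of these differences was made with 2 replicates, and a difference between 2 peaks of less than about that range lies within what the replicates of a single peak showed.

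**Figure D3:**
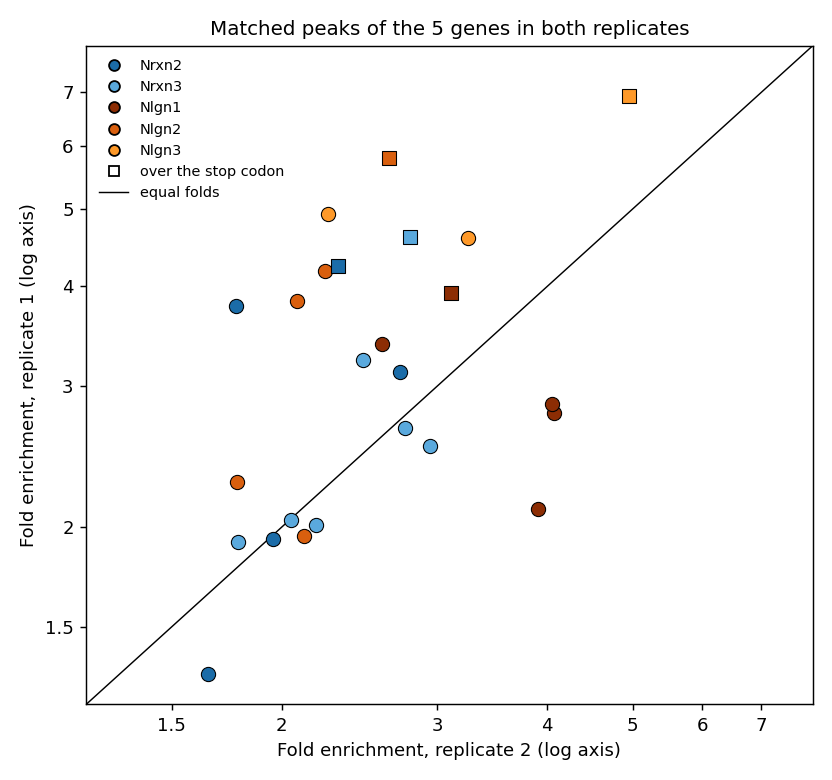
Fold enrichment of the 25 matched peak pairs in replicate 2 (x axis) and replicate 1 (y axis), both on log scales, coloured by gene, with squares for the pairs over a stop codon and a line of equal values. All 5 squares lie above the line, and 3 of the 5 Nlgn1 points lie well below it.

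Shared peaks had higher medians than peaks without a partner. They had a median of 3.09 in replicate 1 and 2.47 in replicate 2, and peaks without a partner 2.72 and 1.64. As 27 of 33 and 25 of 29 peaks were shared, the medians without a partner rest on few peaks. The same medians over all exonic peaks were not computed. The lower value of each pair had a median of 2.32 ± 0.70 (SD over 25 pairs), beside 2.21 over all exonic pairs. By the lower value of its strongest pair Nlgn1 (3.11) ranked above 71.3% of genes, Nrxn3 (2.79) above 57.2%, Nrxn2 (2.72) above 54.3% and Nlgn2 (2.65) above 50.5%, all close to the median gene with 2.64. Only Nlgn3, at 4.95, was far from it. The order of the other 4 rests on differences smaller than the gap between their own replicates.

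The genes of 37 proteins that bind neurexins or neuroligins, or that anchor them inside the cell, were examined alongside. A shared peak was present in 36 of all 37 (97.3%), and these 36 are all those with any exonic peak. Over all genes, 80.2% of those with an exonic peak had a shared one. The listed genes had a median of 3 shared intervals, where the median gene with any had 2. In 29 of the 36 (80.6%) a shared interval lay over a stop codon, beside 53.6% of all genes with a shared peak. The part of the higher number of intervals in that share was not tested. The exception was Cask, the scaffold kinase that binds the neurexin tail, which had no peak in either replicate. Their strongest pairs had a median lower value of 2.83, beside 2.64 over all genes. In 12 of 36 genes this strongest pair lay over a stop codon, beside 38.3% of all genes with a pair.

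Among the partners with the strongest peaks were Lrrtm3 (6.92 and 5.40 in replicates 1 and 2) and Lrrtm1 (5.19 and 5.12), postsynaptic leucine-rich repeat proteins that bind neurexins. Cbln2 (6.17 and 4.15) encodes a secreted protein that bridges neurexins to glutamate delta receptors. Shank2 (7.75 and 4.20) encodes a scaffold of the postsynaptic density, and Mdga1 (4.09 and 4.81) a protein that binds neuroligins and blocks their contact with neurexins. Nlgn3 lay among these 5 by its lower value, and the other 4 adhesion genes lay in the middle of the list.

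**Figure D4:**
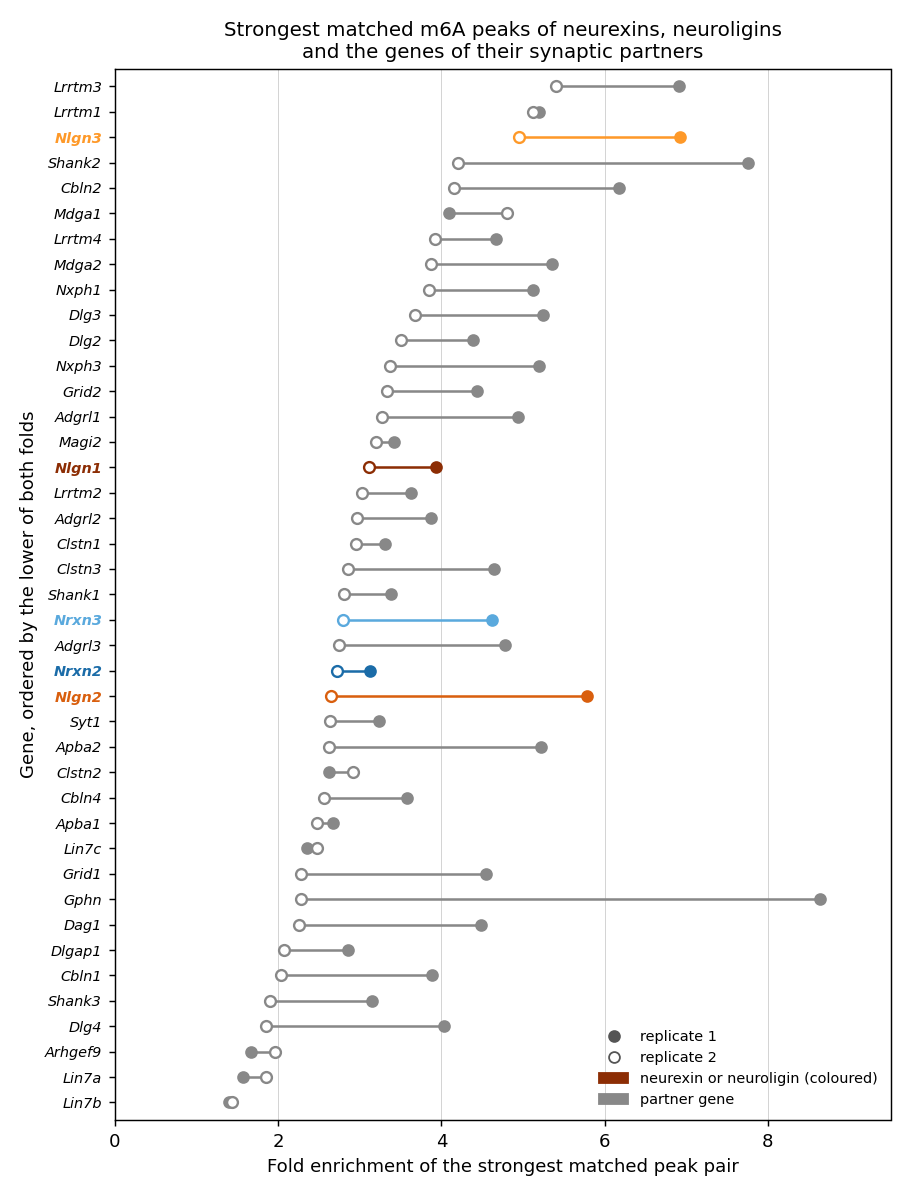
Fold enrichment (x axis) of the strongest matched peak pair of each gene, filled for replicate 1 and open for replicate 2, for the 5 adhesion genes (coloured) and the 36 partner genes with a pair (grey), ordered by the lower value. Nlgn3 is next after Lrrtm3 and Lrrtm1, and Nlgn1, Nrxn3, Nrxn2 and Nlgn2 lie between 2.65 and 3.11.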

How the data were processed

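m6A-seq was performed by the authors on whole brain mRNA (2 IP and 2 input samples). Adapters were trimmed with Cutadapt and reads filtered with Trimmomatic; the submitters' processing notes name TopHat2 2.0.9, mm10 and MACS2. Per the methods, peaks were called for each IP replicate against its own input, without pooling, with all duplicates kept. The deposited values are peak positions and fold enrichment, a ratio of IP over input. No counts were given, so the depth is unknown and no interval that needs it was computed.

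From the lists, peaks (both ends counted, shortest 200 nt) were assigned to exons of any GENCODE M21 transcript on GRCm38, with Python 3.11.15; 99.9% of 27449 annotated start codons read ATG. Overlap, representative transcripts and pairs were defined as in the text, and paralogs were aligned globally with Biopython 1.88. First exons are those of coding transcripts with an annotated start codon and the exons that hold it, merged where they overlap. The overlap procedure was tested on simulated data. All values are descriptions with no test. Every listed member is named with its peaks; of the partner list the 5 genes with the highest lower fold and those without a shared peak are named. Members and lists were chosen with earlier results of these data known. Alternatives were stricter overlap, fold enrichment of at least 2, peak midpoints, exons of the representative transcripts only, the motif GGAC and leaving out either replicate. Other genes of these families were not analysed here.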

Additional observations from a re-analysis of the deposited data

How the results depend on the processing

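The 10 main results were recomputed under 41 alternatives, and 38 of the values moved by less than the limit set for each. At a fold enrichment of at least 2 the share of replicate 2 peaks with a partner was 95%, and first exons with a shared interval numbered 4. With the motif GGAC in place of GGACT the share of shared intervals was 92.3%. All 5 genes had a shared peak under each alternative that used both replicates, and with either replicate left out all 5 had a peak in the other. No paired analysis was possible because only the IP samples had values and no groups were compared. The depth behind either list is unknown, so a missing peak is not evidence of a missing mark, and the lists carry no strand.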

Other observations

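Peaks inside the introns of the 5 genes, which the exon rule leaves out, lay in Nrxn3 and Nlgn1, the genes that span 1612 kb and 906 kb. Replicate 1 had 19 such peaks in Nrxn3 and 24 in Nlgn1, and replicate 2 had 1 and 5. Over all genes, 31981 of the 38533 peaks of replicate 1 and 28260 of the 30134 of replicate 2 touched an exon of a protein-coding gene. Replicate 1 thus had more peaks outside such exons in the whole list too. The share of intronic peaks found in both replicates was not computed over all genes, so the counts below have no background. In Nrxn3 1 of them was shared, with 3.70 and 4.34 in replicates 1 and 2 (chr12:89558612-89558782), 25.6 kb from the nearest annotated exon. In Nlgn1 3 were shared, with 6.87 and 3.51 (chr3:25697531-25697735), 4.44 and 4.67 (chr3:25781020-25781280) and 8.63 and 3.17 (chr3:25789926-25790223). They lay 122 to 215 kb from the nearest exon and held 0, 1 and 1 GGAC and no GGACT. The value of 8.63 is above every exonic peak of the 5 genes in replicate 1.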
